A study of Danio rerio with 4 samples.

Results

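When a cell copies its DNA it must also copy the packaging and the chemical marks of that DNA, and the 9 genes described here encode parts of that machinery. They are uhrf1 and dnmt1 (maintenance of DNA methylation), hells and cdca7a (a chromatin remodeller and its partner), chaf1a and chaf1b (subunits of chromatin assembly factor 1, CAF-1), asf1ba and asf1bb (histone chaperones of the ASF1 family), and slbp (the histone mRNA stem-loop binding protein). A gene was taken from the authors' deposited edgeR table of heart RNA when its symbol equalled a listed name, ignoring case. All 9 listed names were found, each with 1 Ensembl gene ID, among 14962 genes, and the same 9 IDs were present among the 31462 genes of the separate count files.

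The labels give the groups as alfacalcidol (2 libraries) and vehicle (2 libraries), all from hearts of adult zebrafish of the Ekkwill laboratory strain. Alfacalcidol is a synthetic form of vitamin D that the liver hydroxylates into the active hormone. Fish of both groups received an injection on each of 3 days, and hearts were collected 24 hours after the last injection. The labels name no dose and do not say whether a library is a single heart or a pool, so p-values from the counts measure the spread between these libraries, which may be technical.

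As background, newly replicated DNA carries methyl groups on its parental strand only. UHRF1 recognises such sites and brings in DNMT1, which methylates the daughter strand. HELLS and CDCA7 form a remodelling pair that opens nucleosomes for this reaction, and in humans mutations in either gene cause an immunodeficiency with loss of DNA methylation at pericentromeric repeats. ASF1 carries new histones H3 and H4 and hands them to CAF-1, which is held at the replication fork by the sliding clamp and deposits them on daughter DNA. SLBP binds the stem-loop that ends replication-dependent histone mRNAs in place of a poly(A) tail and is needed for their processing and translation. Transcripts of these genes are commonly abundant in cells in S phase and scarce in resting tissue such as the adult heart muscle.

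The files hold 2 sources that did not describe the same RNA, so they are reported apart. The authors' deposited table gives for each gene a log2 fold change, a mean level in log2 CPM (counts scaled to a common library size) and p-values, with no value per library and no list of the libraries used. Its 10 cardiomyocyte markers summed to 90242 CPM, whereas they summed to 363.7 and 312.6 CPM in the alfacalcidol count libraries and to 312.9 and 350.0 CPM in the vehicle count libraries. None of those 10 markers was at 0 in every count library. The count libraries were instead rich in markers of other tissues: 7 skeletal muscle genes summed to 41137 and 35412 CPM in the alfacalcidol libraries and to 37890 and 41214 CPM in the vehicle libraries. For 6 cartilage genes the sums were 8428 and 8073 CPM in the alfacalcidol libraries and 8294 and 7989 CPM in the vehicle libraries. For 7 epidermis genes they were 17835 and 26483 CPM in the alfacalcidol libraries and 27658 and 17801 CPM in the vehicle libraries, so that alfacalcidol 2 and vehicle 1 were high together. The count libraries are therefore called by their labels, with nothing said of their tissue. Their totals ran from 31427486 to 39572163 reads, and alfacalcidol library 1 and vehicle library 2 were closer to each other than either was to the other library with its label.

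In the authors' deposited table all 9 genes were higher at an adjusted p of 0.05 (edgeR, Benjamini-Hochberg), where 10.9% of all 14962 genes were called higher. Their median log2 fold change in the authors' deposited table was 3.54, an 11.6-fold difference, against a median of 0.01 over all genes. The middle of the distribution of all genes, from the 25th to the 75th percentile, ran from -0.25 to 0.30 on the log2 scale. The table names no sample, so neither the groups compared nor the numerator is stated. The number of libraries is not stated there either, so the spread that the deposited p-values measure is unknown and may be technical. The comparison is read as alfacalcidol against vehicle, with positive values as higher with alfacalcidol. That reading rests on cyp24a1, a known vitamin D receptor target that encodes the enzyme degrading the hormone. It stands there at a log2 fold change of 1.53 (adjusted p 8.19e-05 in the authors' deposited table). Its mean level in the authors' deposited table was low, 3.69 CPM. Every direction given from the table rests on that reading, and with the ratio turned each sign would turn. In the count libraries cyp24a1 stood at 6.80 and 3.07 CPM under the alfacalcidol label, against 3.50 and 9.70 CPM under the vehicle label, and was not called (log2 fold change -0.43, edgeR adjusted p 1.0). In bulk tissue, more cells of a kind and more RNA per cell cannot be told apart.

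**Figure D1:**
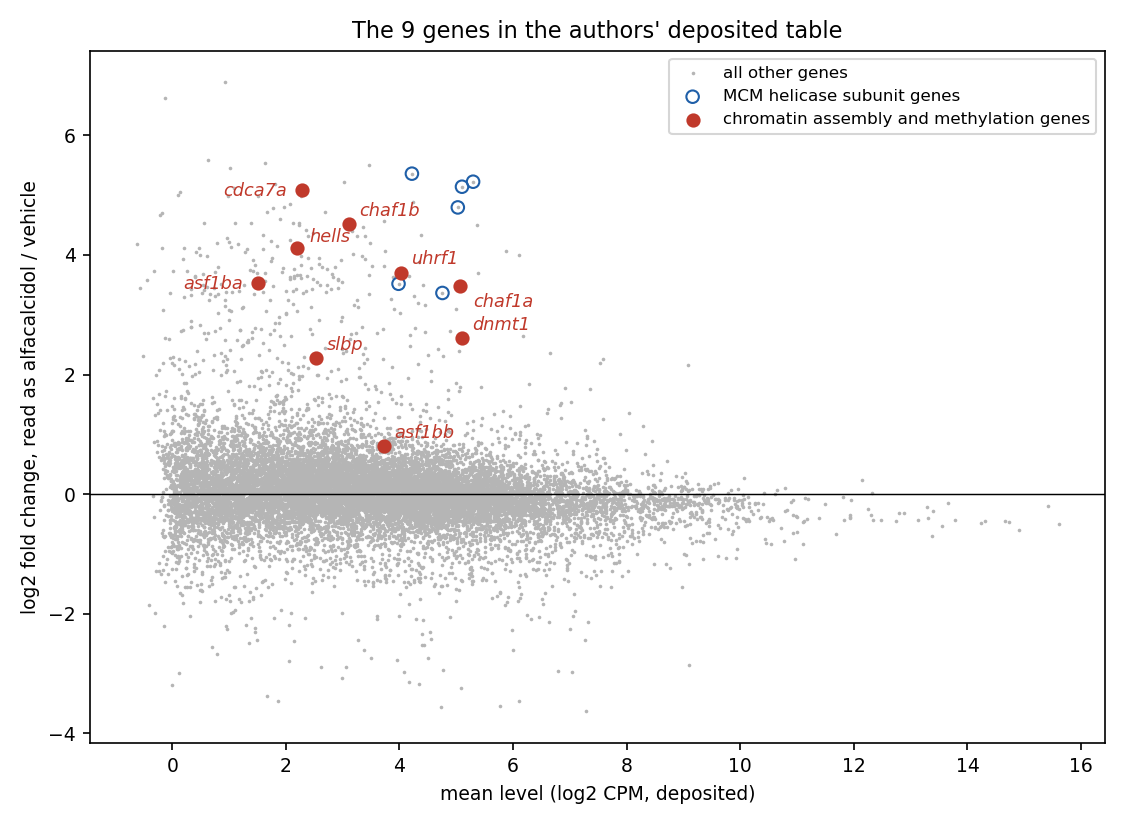
Each point is a gene of the authors' deposited table, with its mean level in log2 CPM on the x axis and its log2 fold change, read as alfacalcidol over vehicle, on the y axis. Red points are the 9 genes and blue rings the 6 MCM helicase subunit genes; 8 red points lie above 2 and asf1bb lies at 0.80.

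Both genes of the methylation maintenance pair were called higher in the table. The gene uhrf1, encoding the reader of hemimethylated DNA (ENSDARG00000103409, chromosome 22, 3955795 to 3986463, GRCz10), was 13.1-fold higher in the authors' deposited table, or 3.71 on the log2 scale, with an adjusted p of 3.09e-53. Its mean level in the authors' deposited table was 16.3 CPM. The methyltransferase gene dnmt1 (ENSDARG00000030756, chromosome 3, 54336611 to 54352679) was 6.09-fold higher in the authors' deposited table, or 2.61 on the log2 scale, at a mean of 34.2 CPM (adjusted p 1.86e-34). The reader gene thus had the larger difference of the pair, and whether the 2 values differ was not tested, because the table holds no standard errors.

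The remodeller gene and that of its partner were called higher as well. The gene cdca7a, encoding the zinc-finger partner of HELLS (ENSDARG00000077620, chromosome 9, 2873743 to 2886230), had the largest log2 fold change of the 9 genes in the authors' deposited table, 5.09, a 34.1-fold difference (adjusted p 5.14e-41). It ranked 13 of 14962 genes by log2 fold change in the authors' deposited table, counted from the most positive value, and also 13 by size without the sign. For hells, the SNF2-family ATPase gene (ENSDARG00000057738, chromosome 13, 7923083 to 7938695), the value in the authors' deposited table was 4.11, a 17.2-fold difference (adjusted p 1.59e-39; rank 60). Their mean levels were 4.87 CPM for cdca7a and 4.60 CPM for hells in the authors' deposited table. Both are low, and a low mean makes the size of a fold change uncertain.

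Both subunit genes of CAF-1 in the set were strongly higher. In the authors' deposited table chaf1b, the WD40 subunit gene (ENSDARG00000056473, chromosome 9, 30732393 to 30744979), had a log2 fold change of 4.52, a 22.9-fold difference (adjusted p 1.08e-53; mean 8.65 CPM). The gene of the large subunit, chaf1a (ENSDARG00000062152, chromosome 22, 22251305 to 22276979), had 3.49, an 11.2-fold difference (adjusted p 4.07e-58; mean 33.6 CPM), in the authors' deposited table. By p-value chaf1a ranked 13 and chaf1b 18 of 14962 genes in the authors' deposited table. The third CAF-1 subunit is shared with many other chromatin complexes, and its gene rbbp4 was 2.07-fold higher in the authors' deposited table, or 1.05 on the log2 scale (adjusted p 1.02e-05; mean 52.6 CPM); it is named here after its value was seen.

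Both ASF1 paralogs were called higher. The gene asf1ba (ENSDARG00000101037, chromosome 3, 45359507 to 45369581) was 11.6-fold higher in the authors' deposited table, or 3.54 on the log2 scale (adjusted p 2.17e-21; mean 2.87 CPM). This mean was the lowest of the 9 genes, so the size of the asf1ba fold change is uncertain too, and its value is the median of the 9. Its paralog asf1bb (ENSDARG00000043713, chromosome 1, 55200462 to 55211319) had 0.80, a 1.74-fold difference (adjusted p 0.00093; mean 13.2 CPM), in the authors' deposited table. Only asf1bb among the 9 genes fell short of a 2-fold difference, and 5.13% of all genes in the authors' deposited table were called higher by 2-fold or more. With the counting of reads shared by paralogs not given in the sources used here, their split is uncertain, and the difference between their fold changes was not tested.

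For slbp (ENSDARG00000100558, chromosome 14, 14536122 to 14540603), whose product binds histone mRNA, the log2 fold change in the authors' deposited table was 2.27, a 4.82-fold difference (adjusted p 6.31e-15; mean 5.80 CPM). It ranked 271 by log2 fold change, between dnmt1 at 231 and asf1bb at 1112. The other ranks by log2 fold change in the authors' deposited table were 35 for chaf1b, 101 for uhrf1, 128 for asf1ba and 136 for chaf1a, so 6 of the 9 genes stood among the 200 most positive values. By size without the sign 6 of the 9 stood among the 200 largest too, with dnmt1 at 256, slbp at 309 and asf1bb at 1873 in the authors' deposited table. At an adjusted p of 0.01 all 9 genes were called higher, against 7.53% of all genes in the authors' deposited table, and all 9 passed a minimum of 1 CPM, where 10.7% of genes were called higher. A log2 fold change over 2 was reached by 8 of the 9 genes, where 2.11% of all genes in the authors' deposited table reached it.

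Fold changes can run larger among genes with low counts, so each gene was also set beside genes of like level, within 0.5 on the log2 CPM scale. Of 2436 such genes around cdca7a, 1 had a larger log2 fold change in the authors' deposited table. Around chaf1b it was 3 of 2583, around chaf1a 5 of 2022 and around uhrf1 7 of 2554. Around dnmt1 it was 9 of 2001, around hells 17 of 2404, around asf1ba 29 of 2046 and around slbp 62 of 2510. Around asf1bb 140 of 2605 genes of like level in the authors' deposited table had a larger value. Thus 8 of the 9 genes stood near the top among genes of like read count, also where that count was low, and asf1bb stood lower.

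The 9 genes lie on 6 chromosomes, with pairs on chromosomes 3, 9 and 22, and no gene span in the authors' deposited table overlapped any of them. The nearest listed gene on either side of each, 18 flanking genes in all at 596 to 102477 bases, had a median log2 fold change in the authors' deposited table of -0.15. Of these 18 flanking genes, 3 passed the adjusted p of 0.05, against 20.1% of all genes in the authors' deposited table. Beside uhrf1, the histone demethylase gene kdm4b lay 772 bases away at lower coordinates. It had a log2 fold change of -0.19 (adjusted p 0.565), while ticam1 on the other side had -0.18 (adjusted p 0.610), in the authors' deposited table. Both ASF1 genes have a protein kinase A catalytic subunit gene as a neighbour: prkacaa beside asf1ba had -0.50 (adjusted p 0.0357) and prkacab beside asf1bb had -0.14 (adjusted p 0.702) in the authors' deposited table. The other called neighbours in the authors' deposited table were si:dkey-102m7.3 beside slbp, higher at 0.95, and si:ch73-343l4.8 beside asf1bb, lower at -1.34. Apart from asf1bb at 0.80, each of the 9 genes had a log2 fold change in the authors' deposited table above those of all 18 flanking genes.

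**Figure D2:**
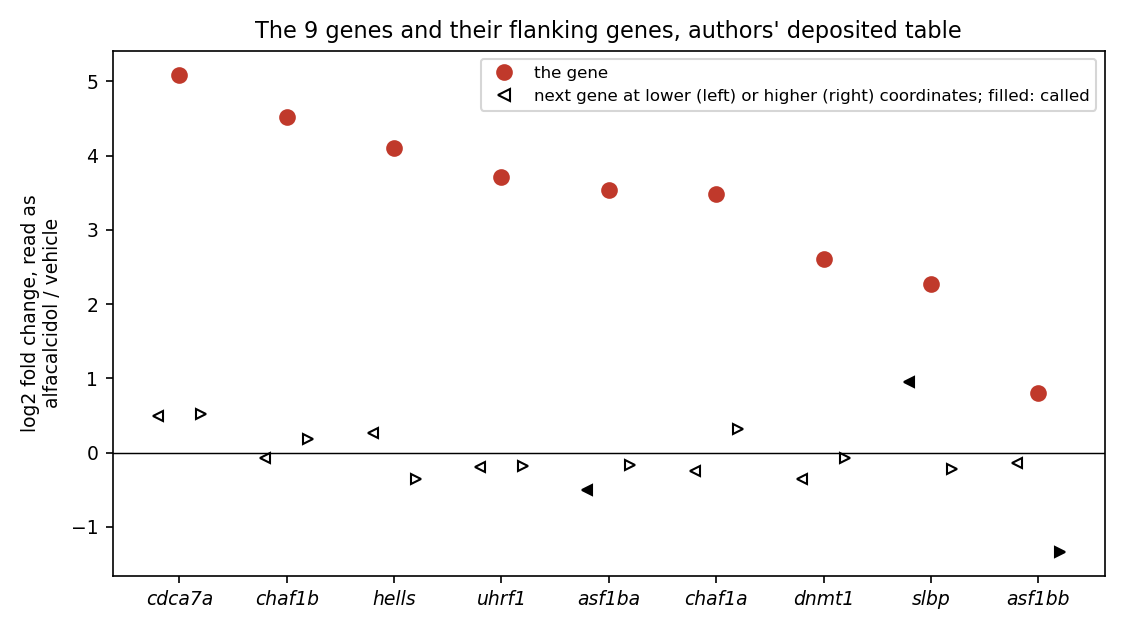
The y axis is the log2 fold change in the authors' deposited table, read as alfacalcidol over vehicle, for each of the 9 genes (red circles) and for the next listed gene on each side (triangles, filled where called). Flanking genes run from -1.34 to 0.95, and 8 of the 9 red points lie above all of them.

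Of 18 other DNA methylation genes, 8 were higher, 1 was lower and 9 were not called in the authors' deposited table, where 10.9% of all genes were called higher and 9.22% lower. The median of these 18 was 0.43 on the log2 scale. The 4 with the lowest p encode DNMT3-type enzymes, which methylate DNA without a methylated template: in the authors' deposited table dnmt3ab stood at 1.89, dnmt3ba at 2.64, dnmt3bb.3 at 2.55 and dnmt3bb.1 at 1.98 on the log2 scale (adjusted p 1.81e-19, 5.38e-18, 3.82e-15 and 1.84e-11). Further members are named after their values were seen. The remaining genes for DNMT3-type enzymes were dnmt3aa at 0.58 (adjusted p 0.0332) and dnmt3bb.2, not called, at 0.78 (adjusted p 0.0960) in the authors' deposited table. The spans of dnmt3bb.2 and dnmt3bb.3 overlap on chromosome 23, and their mean levels there were 0.92 and 2.48 CPM. The split of reads between these paralogs is therefore uncertain, and the difference between their values was not tested. The methyl-CpG binding protein gene mbd2 was the lower one, at -1.16 in the authors' deposited table (adjusted p 0.000745). Of the genes for TET dioxygenases, which oxidise methylcytosine, tet2 was higher at 0.56 (adjusted p 0.0408), while tet1 had -0.35 (adjusted p 0.440) and tet3 had 0.15 (adjusted p 0.638) in the authors' deposited table. The paralog of cdca7a, cdca7b, had 0.81 in the authors' deposited table (adjusted p 0.0109).

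A list of other histone chaperones and associated factors, such as hat1, ipo4, cdan1 and atrx, gave 21 genes. Of these 21, 8 were higher, 0 lower and 13 not called in the authors' deposited table, against 10.9% of all genes higher and 9.22% lower. The median of these 21 was 0.46 on the log2 scale. The leading ones were nasp at 2.05, which encodes a chaperone that stores H3 and H4, and mms22l and tonsl at 3.02 and 2.55, whose products bind new histones at replication forks (adjusted p 3.81e-22, 3.82e-22 and 8.13e-15 in the authors' deposited table). The gene ssrp1a of the FACT complex, which opens and reassembles nucleosomes as polymerases pass, was higher at 1.65 in the authors' deposited table (adjusted p 7.29e-10). Its paralog ssrp1b had 0.18 (adjusted p 0.549) and its partner supt16h 0.46 (adjusted p 0.0551) in the authors' deposited table. Genes of replication-independent deposition did not pass: hira had 0.47 (adjusted p 0.0687), daxx 0.07 (adjusted p 0.882) and atrx 0.30 (adjusted p 0.259) in the authors' deposited table. These paralogs, partners and replication-independent genes were picked after their values were seen, and differences between genes were not tested.

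Beside slbp, 0 of 9 other histone mRNA processing genes in the authors' deposited table passed the adjusted p of 0.05. Of all genes there, 20.1% passed it in either direction. The lowest p values were those of npat, which encodes a coactivator of histone gene transcription, at 0.51 (adjusted p 0.0583) and of casp8ap2, whose product takes part in the cleavage of histone pre-mRNA, at 0.43 (adjusted p 0.172) in the authors' deposited table. All 9 had positive values, from 0.12 to 0.51, in the authors' deposited table, where 7631 of 14962 genes had positive values. Of 20 heterochromatin genes, 7 were higher, 0 lower and 13 not called in the authors' deposited table (median 0.47), where 10.9% of all genes were called higher and 9.22% lower. They were led by the H3K27 methyltransferase gene ezh2 at 1.36, the HP1 gene cbx1a at 1.13 and the H3K9 methyltransferase genes ehmt2 at 1.39 and suv39h1b at 0.85. Their adjusted p values in the authors' deposited table were 2.20e-08, 4.61e-08, 3.09e-05 and 0.000612.

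The 6 MCM genes encode the replicative helicase that travels ahead of CAF-1. In the authors' deposited table all 6 were called higher, against 10.9% of all genes, and their median was 4.97 on the log2 scale. Of the 9 genes, only cdca7a at 5.09 lay above that median. With mcm2 at 5.14, mcm3 at 5.36, mcm4 at 4.80 and mcm6 at 5.22 in the authors' deposited table, 4 MCM genes exceeded chaf1b at 4.52. The remaining MCM genes, named after their values were seen, were mcm5 at 3.36 and mcm7 at 3.52 in the authors' deposited table. Both lay below the median of the 9 genes, 3.54, so the ranges of the MCM genes and the 9 genes overlapped. The genes nearest to the median of the 9 in level and log2 fold change together were the mitotic genes kif20bb, a kinesin gene, ncapg, a condensin gene, and ndc80, a kinetochore gene. In the authors' deposited table their log2 fold changes were 3.54, 3.58 and 3.60 and their mean levels 7.96, 7.55 and 7.57 CPM. This likeness is a distance over the 1 comparison of the table (0.119, 0.200 and 0.204 on the log2 scale) and says nothing of shared control.

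**Figure D3:**
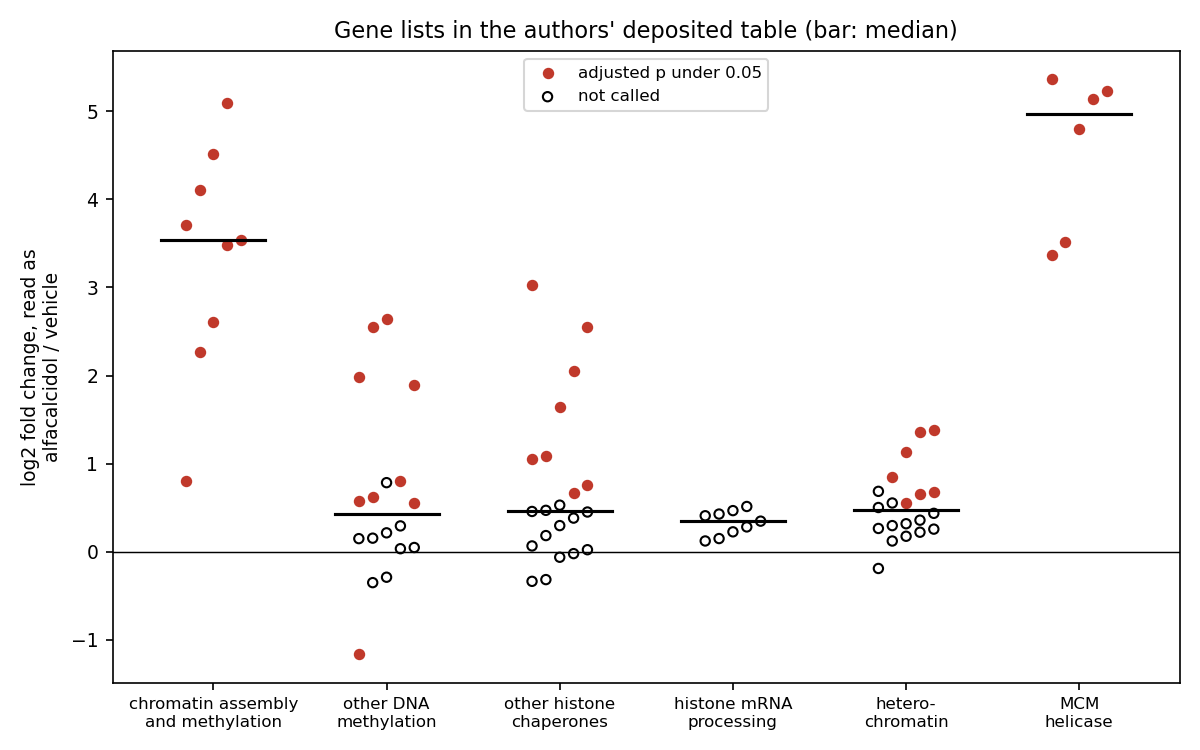
Each point is a gene of the list named on the x axis and the y axis is its log2 fold change in the authors' deposited table, read as alfacalcidol over vehicle; red points passed an adjusted p of 0.05 and bars are medians. The medians are 3.54 for the 9 genes, 0.43, 0.46, 0.35 and 0.47 for the lists of methylation, chaperone, histone mRNA and heterochromatin genes, and 4.97 for the MCM genes.

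Markers of cell types also differed in the authors' deposited table, where 9.22% of all genes were called lower and 10.9% higher. All 6 genes listed as neutrophil markers were lower there (median -2.03, mean levels 1.43 to 4.27 CPM), and whether each is particular to neutrophils was not tested. Of the other lists, 2 of 10 cardiomyocyte and 2 of 6 erythrocyte markers were lower with none higher. All 10 cardiomyocyte values in the authors' deposited table were negative, from -1.09 to -0.10 (median -0.37). All 6 erythrocyte values there were negative too, from -0.64 to -0.28 (median -0.47). In epidermis 3 of 4 markers were lower in the authors' deposited table, and in skeletal muscle 2 of 7. Those 2, named after their values were seen, were ckma at -0.83 and acta1b at -0.81, with mean levels of 1492 and 1410 CPM. The other 5 skeletal muscle markers were not called. Their values in the authors' deposited table were all positive, from 0.06 to 0.39, at mean levels of 2.48 to 8.75 CPM. The 1 neuron and glia marker in the authors' deposited table, elavl4, was lower, and of its 2 cartilage markers none was called. The table holds no summed level per group for them, and the part of these markers in the values of the 9 genes was not tested.

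In the count libraries neither the 9 genes nor most other genes separated by label. By edgeR's quasi-likelihood test, 0 of the 9 genes and 0 of all 22428 genes (0.0%) passed an adjusted p of 0.05. At an unadjusted p under 0.05 there were 128 genes (0.571%), and 0 of the 9. That share, taken as a fraction of genes and not as a percentage, is below the 0.05 that such a threshold passes where no gene differs. The p-values by label therefore ran high, and the lack of calls says little. DESeq2 also called 0 genes, with 20 at an unadjusted p under 0.05. With the crossed pairing of libraries as a block, an alternative chosen with the data known, edgeR called 7 genes (0.0312%) and 0 of the 9. In that fit 788 genes, and 0 of the 9, had an unadjusted p under 0.05. The alfacalcidol and vehicle libraries overlapped for all 9 genes, as they did for most genes. Of all genes, 10.6% had both alfacalcidol libraries above both vehicle libraries and 10.5% had both below. The median log2 fold change of the 9 was 0.04, against -0.0017 over all genes.

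Levels of uhrf1 were 66.2 and 75.0 CPM in alfacalcidol libraries 1 and 2, against 65.7 and 67.0 CPM in vehicle libraries 1 and 2 (2242 and 2976 reads against 2064 and 2328 reads). For dnmt1 the levels were 92.5 and 97.8 CPM in the alfacalcidol libraries, against 95.1 and 85.7 CPM in the vehicle libraries. Alfacalcidol 2 was the highest library for both genes, and the other alfacalcidol library lay within the vehicle range. The log2 fold changes were 0.09 ± 0.09 (SE, 95% interval -0.12 to 0.30) for uhrf1 and 0.07 ± 0.09 (interval -0.13 to 0.28) for dnmt1, each with an edgeR adjusted p of 1.0.

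Levels of hells were 31.3 and 28.6 CPM in the alfacalcidol libraries, against 30.6 and 33.4 CPM in the vehicle libraries. For cdca7a they were 33.4 and 37.2 CPM in the alfacalcidol libraries, against 39.3 and 36.6 CPM in the vehicle libraries. The remodeller and its partner were the 2 genes with the most negative values, -0.10 ± 0.09 (interval -0.32 to 0.13) for hells and -0.10 ± 0.09 (interval -0.32 to 0.12) for cdca7a (SE, log2 scale), and in both the groups overlapped. The CAF-1 genes varied least. Levels of chaf1a were 58.1 and 57.6 CPM in the alfacalcidol libraries, against 59.3 and 56.9 CPM in the vehicle libraries, and its highest library was 1.04 times its lowest. For chaf1b the levels were 19.6 and 20.7 CPM in the alfacalcidol libraries, against 20.1 and 19.5 CPM in the vehicle libraries, and that ratio was 1.06.

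The ASF1 gene asf1ba stood at 13.1 and 14.2 CPM in the alfacalcidol libraries, against 14.0 and 11.7 CPM in the vehicle libraries (443 and 564 reads against 441 and 407 reads). Its paralog asf1bb stood at 26.4 and 28.7 CPM in the alfacalcidol libraries, against 25.7 and 28.0 CPM in the vehicle libraries. The spread of slbp was the widest, with 21.8 and 27.4 CPM in the alfacalcidol libraries, against 24.8 and 22.9 CPM in the vehicle libraries. Both the highest and the lowest slbp library carried the alfacalcidol label, at a mean of 24.6 ± 3.99 CPM against 23.9 ± 1.33 CPM with the vehicle label (SD, n = 2 each).

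**Figure D4:**
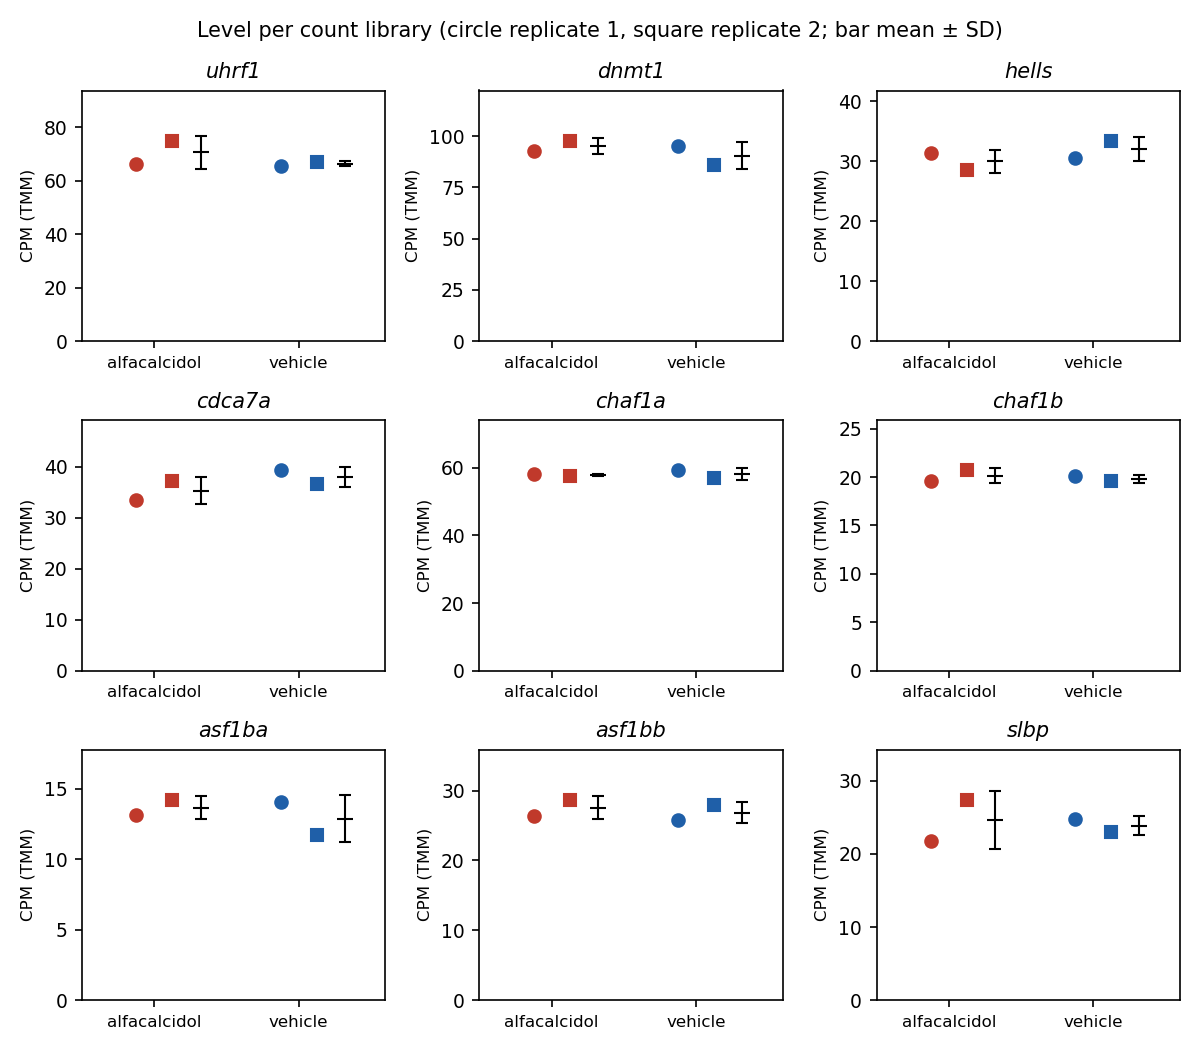
Each panel shows 1 gene in the 4 count libraries, with the TMM-scaled level in CPM on a y axis from 0, alfacalcidol in red and vehicle in blue (circle replicate 1, square replicate 2) and the mean ± SD of each group (n = 2) as a black bar. The 2 labels overlap in every panel.

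The upper end of the 95% interval in the count libraries was highest for asf1ba, at 0.38 on the log2 scale, and lowest for cdca7a, at 0.12. For each of the 9 genes that upper end lay below its log2 fold change in the authors' deposited table, including asf1bb, with an upper end of 0.26 in the count libraries against 0.80 in the authors' deposited table. These intervals rest on 407 to 3879 reads per gene and library and on the spread of 2 libraries per label, moderated over all genes. Because the 2 sources did not describe the same RNA, the count libraries are no repeat of the deposited comparison. The levels of the genes differed between the sources as well: the mean of the count libraries was above the mean of the authors' deposited table for all 9 genes, by 1.72 to 7.53 times (median 4.18), where 67.6% of all genes were above it and the median ratio over all genes was 1.52. For the 6 MCM genes the ratio of count libraries to the authors' deposited table ran from 2.01 to 6.22.

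**Figure D5:**
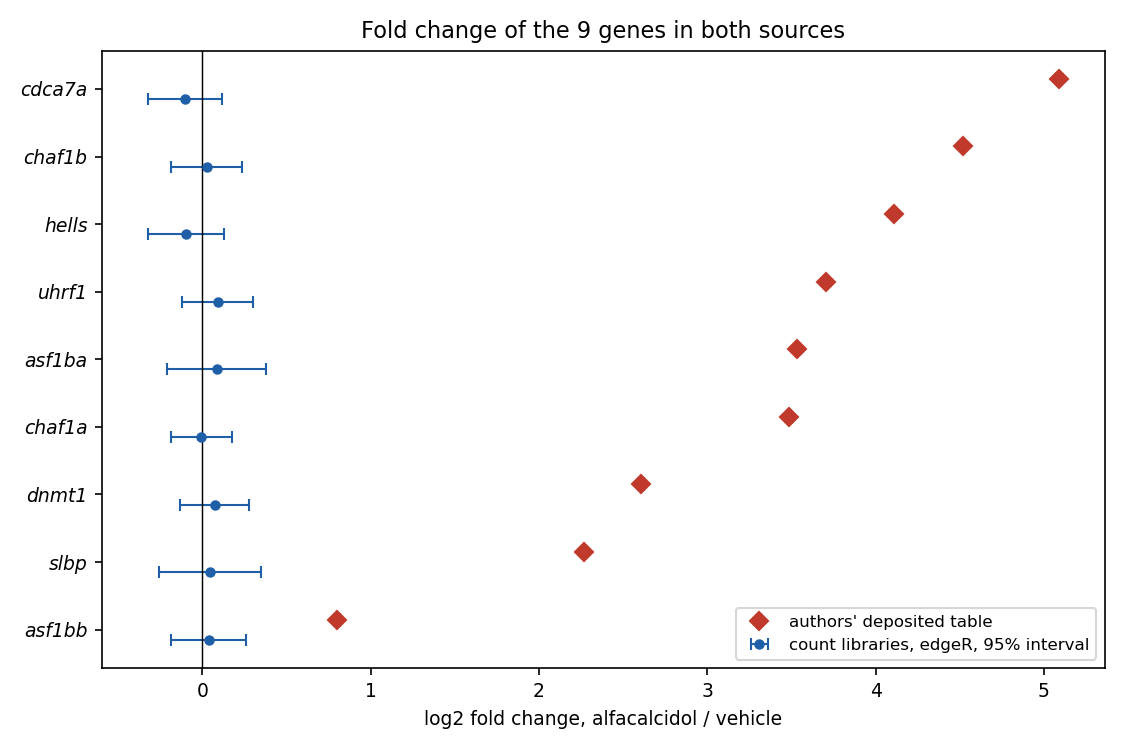
The x axis is the log2 fold change of each of the 9 genes in the authors' deposited table (red diamonds, read as alfacalcidol over vehicle, no error given) and in the count libraries by label (blue points with 95% intervals derived from the edgeR F statistics, 2 libraries per label). The red values run from 0.80 to 5.09, and all 9 blue intervals include 0 and end below the red value. The 2 sources did not describe the same RNA.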

How the data were processed

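The members, gene lists and alternatives were chosen with earlier results of these data known, and nothing here is independent of them. The deposited raw counts per Ensembl gene came from the authors' own pipeline. The submitters' processing notes name GRCz10, CASAVA, TopHat2, featureCounts and edgeR, with versions, strand and shared-read settings not given in the sources used here. As edgeR output, log2 fold changes and log2 CPM were deposited by the authors, per the same notes. The deposited p-values come unadjusted and adjusted, and recomputing Benjamini-Hochberg from the unadjusted values gave the adjusted ones. Coordinates are those of the deposited table.

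Counts were fitted in edgeR 4.0.16 (R 4.3.3; quasi-likelihood F-test, two-sided, TMM, filterByExpr, group as the only term), which tested 22428 genes, with an adjusted p of 0.05 over all of them and intervals at 95%. Standard errors were derived as the size of the log2 fold change over the square root of its F statistic. The intervals used the degrees of freedom of that test, which are moderated over all genes. Counting precision is set by 31427486 to 39572163 reads per library. The fit was tested on simulated data with independent libraries at a common dispersion. That test could not cover likeness between libraries of different labels. Alternatives were RLE scaling, other low-count filters, DESeq2 1.42.0, a replicate block and each library left out. From the deposited table, members and lists were counted at an adjusted p of 0.05. Gene lists were matched by symbol, with symbols of several IDs left out. Named genes were the 9 members, cyp24a1, up to 4 called genes per list by lowest p (the lowest 2 where none was called) and the 3 nearest genes. Flanking genes were set by position, and those named were picked with their values known. The marker elavl4 is named as the only one of its list present. Other genes are marked as chosen after their values were seen. Promoters were not analysed here.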

Additional observations from a re-analysis of the deposited data

How the results depend on the processing

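The authors' deposited table called 9 genes of the set at an adjusted p of 0.05, 9 at 0.01, 9 at 1 CPM or more and 8 with a 2-fold minimum, which asf1bb missed. In the count libraries 0 of the 9 genes were called under any alternative run, and 0 genes of the whole table were called with RLE scaling, without a low-count filter, at 1 CPM in 2 libraries, with DESeq2 or with any library left out (0 to 0). The replicate numbers did not pair the libraries: deviations of vehicle 1 and alfacalcidol 1 from their group means correlated at -0.47 across 22428 genes, and the replicate block called 0 genes. Pairing vehicle 1 with alfacalcidol 2 and the others likewise as a block, chosen with the data known, called 7 genes, none of the 9; the cause was not tested. Leaving out a library turned the sign of uncalled log2 fold changes. Values ran from -0.0026 to 0.18 for uhrf1 and from -0.017 to 0.064 for chaf1b (negative without alfacalcidol 2), from -0.032 to 0.023 for chaf1a (positive without vehicle 1), from -0.036 to 0.22 for asf1ba (negative without vehicle 2), from -0.024 to 0.10 for asf1bb (negative without vehicle 1 or alfacalcidol 2) and from -0.13 to 0.20 for slbp (negative without vehicle 2 or alfacalcidol 2). For dnmt1, hells and cdca7a the sign held in each of these. All 54 values under the other alternatives kept their sign. No library could be left out of the authors' deposited table, which has no values per library. The promoter motif search was not run, since no promoter sequences were used here.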
